A study of Mus musculus with 22 samples.

Results

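Immunoglobulin chain genes were followed in poly-A RNA of mouse soleus, a lower-leg muscle of slow and fast fibres. The 7 genes are Ighm, Ighd, Ighg2b, Ighg2c and Igha, which hold the constant regions of heavy chains, Igkc, the constant region of the kappa light chain, and Jchain, which codes for the joining chain. They are 7 of the 55487 genes in the deposited count table and were found there by symbol. The set was chosen from earlier results of these same libraries in which Ighm was higher after T3 in both genotypes, so its T3 values are given as a description and without a test. All mice were males. The 4 groups were WT mice given vehicle (5 libraries), WT mice given T3, the active thyroid hormone triiodothyronine (6 libraries), mice labelled TRa1 KO, for thyroid hormone receptor alpha 1, given vehicle (4 libraries) and TRa1 KO mice given T3 (7 libraries). The labels give no strain, age, dose or duration, do not say in which tissues the receptor was removed, and do not say whether libraries come from different animals. The p-values therefore speak only of the spread among these libraries, which may in part be technical.

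An antibody is built from paired heavy and light chains. In a developing B cell the variable part of each chain is put together from V, D and J gene segments, and the joined segment is transcribed together with a constant-region gene. Ighm and Ighd give IgM and IgD, the first classes made, and switching to a constant gene farther along the locus gives IgG or IgA. Plasma cells, the antibody-secreting descendants of B cells, make heavy and light chains together, and add the joining chain to IgM and IgA polymers. The heavy chain locus can also be read without a joined variable segment, and such germline transcripts carry a constant region but code for no antibody. Resting muscle holds few B cells, and in bulk RNA a lower number of cells of a type and less RNA per cell cannot be told apart.

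The library totals ran from 14542548 to 75766782 counts. Thra, the gene that codes for the receptor, was read at 70.8 to 90.5 CPM (counts scaled to the size and composition of the library) in WT vehicle libraries and at 44.2 to 53.6 CPM in KO vehicle libraries, without overlap, and its log2 fold change was -0.71 ± 0.22 (SE; adjusted p = 0.0979, edgeR). Under T3 the genotypes overlapped, at 19.3 to 58.9 CPM in WT and 21.2 to 39.8 CPM in KO libraries (-0.39 ± 0.18, adjusted p = 0.271, edgeR). With T3 the level of Thra fell in WT mice (-0.86 ± 0.20, adjusted p = 0.016, edgeR), and the change in KO mice was not called (-0.55 ± 0.20, adjusted p = 0.188). Counts over the whole gene do not show which part of it was removed. On the first and second principal components (19.6% and 17.3% of the variance) 5 T3 libraries lay apart, namely 3 of WT mice (replicates 1, 3 and 5) and 2 of KO mice (replicates 2 and 3). WT T3 replicate 5 also had the lowest share of mitochondrial transcripts (11.2%), and KO vehicle replicate 3 had 989 CPM of haemoglobin and other erythroid transcripts. Values without these libraries, or ranges over fits that leave them out, are given beside several of the results they bear on.

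The heavy chain genes of the set lie in the same locus on chromosome 12, with other genes between some of them. The genes that matter most here are the heavy chain gene Ighm (ENSMUSG00000076617, mm10 chr12:113418558-113422730, minus strand) and the light chain gene Igkc (ENSMUSG00000076609, chr6:70726435-70726966, plus strand). The 2 stretches printed first are coding sequence from GENCODE M21 on GRCm38, the first 150 bases of the Ighm constant region (chr12:113422581-113422730, minus strand) and the last 150 coding bases of Igkc before its stop codon (chr6:70726605-70726754, plus strand). They are shown because the counts of this heavy chain and this light chain took different courses with T3. In-frame cysteine codons stand in capitals, since bonds between cysteines fold each domain and tie the chains to each other.
Ighm: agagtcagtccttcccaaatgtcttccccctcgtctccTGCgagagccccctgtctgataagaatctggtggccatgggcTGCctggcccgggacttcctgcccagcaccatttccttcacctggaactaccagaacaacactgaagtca
Igkc: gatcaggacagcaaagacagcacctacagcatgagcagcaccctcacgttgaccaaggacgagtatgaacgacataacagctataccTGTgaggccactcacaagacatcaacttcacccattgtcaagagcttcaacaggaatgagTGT

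The next pair shows why reads of Ighg2b and Ighg2c have to be read with care. Both stretches are the first 150 bases of the constant region, Ighg2c at chr12:113288783-113288932 and Ighg2b at chr12:113307784-113307933 (GRCm38, minus strand), and capitals mark the 15 bases at which they differ.
Ighg2c: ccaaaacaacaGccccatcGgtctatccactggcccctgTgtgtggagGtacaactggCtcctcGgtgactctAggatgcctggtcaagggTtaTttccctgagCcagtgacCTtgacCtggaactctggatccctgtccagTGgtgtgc
Ighg2b: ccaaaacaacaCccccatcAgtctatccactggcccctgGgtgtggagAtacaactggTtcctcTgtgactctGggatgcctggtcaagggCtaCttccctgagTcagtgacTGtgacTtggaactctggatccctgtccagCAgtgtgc
Over the whole first constant exon the pair was 87.6% identical (36 of 291 bases differed). Of all stretches of 51 bases, the read length, in annotated transcripts, 5.25% of those of Ighg2c also stand in Ighg2b. For Ighm, Igkc, Igha and Ighd none stands in another annotated gene. How the authors treated reads that match several places is not given in the sources used here, so counts of Ighg2b and Ighg2c are uncertain to that extent.

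Ighm, the IgM heavy chain gene, was by far the most abundant of the 7 genes, with 18183 counts over the 22 libraries against 1172 for Ighg2c, 229 for Igkc, 125 for Ighd, 68 for Jchain, 61 for Igha and 9 for Ighg2b. Per length of gene, the mean level in WT T3 libraries was 37.4 RPKM (CPM per kilobase of gene length) for Ighm, 1.08 for Ighg2c and 0.974 for Igkc. In KO vehicle libraries the same means were 0.857, 0.848 and 0.423 RPKM, so the lead of Ighm over Ighg2c in the other groups was not seen there. Ighg2c and Igkc were neighbours in this order whose library values overlapped in the WT groups.

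The level of Ighm ranged from 0.833 to 188 CPM among libraries. In WT vehicle libraries it was 2.41, 3.18, 5.42, 29.1 and 2.78 CPM (replicates 1 to 5), and replicate 4 stood far above the rest of its group. In WT T3 libraries the lowest value was 11.8, the median 53 and the highest 188 CPM (replicate 5). In KO vehicle libraries it was 1.1, 3.28, 1.25 and 0.833 CPM, and in KO T3 libraries the lowest value was 5.26, the median 10.8 and the highest 21.2 CPM. By medians the groups thus ran from WT T3 through KO T3 and WT vehicle to KO vehicle, and the ranges of KO T3 and WT vehicle libraries overlapped.

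**Figure D1:**
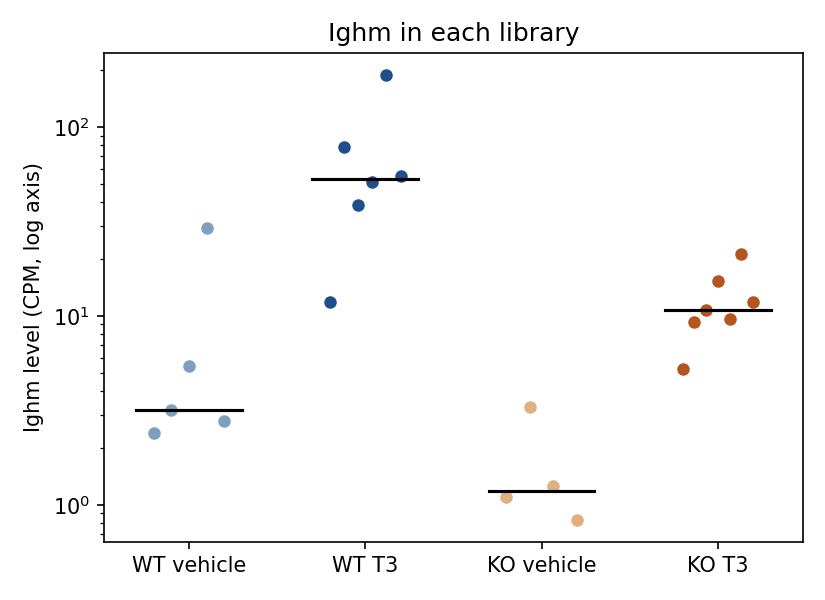
Ighm level in CPM on a log axis (vertical) in each library of the 4 groups (horizontal), with 1 point per library and a bar at the group median. The KO T3 points (5.26 to 21.2 CPM) lie above all KO vehicle points (0.833 to 3.28 CPM), while WT vehicle replicate 4, at 29.1 CPM, lies within the range of the WT T3 points.

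After T3, Ighm was 8.1-fold higher than with vehicle in WT mice (log2 fold change 3.02 ± 0.66, SE of the edgeR fit) and 7.35-fold higher in KO mice (2.88 ± 0.76). Among the 15082 genes tested, its fold change was the 9th from the top in WT mice and the 19th in KO mice. With single libraries left out, the WT value ran from 2.45 to 4.33, the highest being without WT vehicle replicate 4. The KO value ran from 2.63 to 3.46. Under the other alternatives, among them the fit without the T3 libraries that lay apart, the WT value ran from 2.83 to 3.24. The KO value then ran from 2.85 to 2.98. The libraries of T3 and vehicle did not overlap in KO mice, and in WT mice only through WT vehicle replicate 4. As Ighm chose the set, these values are descriptions. Of the 3 members that passed the filter on low counts, 1 (Ighm) was called higher in WT mice and 1 (Ighm) in KO mice (adjusted p below 0.05), beside 3.31% and 2.72% of all genes called in either direction, and since the choice fixed this count nothing is read from it. Over 30 alternatives Ighm was called in 29 for T3 in WT mice and in 20 for T3 in KO mice. The T3 responses of WT and KO mice differed by -0.14 ± 0.94 on the log2 scale (adjusted p = 1, edgeR), with an interval of 2 SE from -2.02 to 1.74, so a response several times larger in either genotype was not excluded. The difference ran from -1.48 to 0.44 with single libraries left out. None of the 3 tested members was called for this difference (0.00663% of all genes were, 1 gene), and none of them had an unadjusted p below 0.05, DESeq2 and limma voom also calling 0.

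Ighm was lower in KO than in WT mice under T3. Its fold change there was -2.56 ± 0.56 on the log2 scale, or 5.92-fold (adjusted p = 0.00642, edgeR). It was the 6th most negative of the 15082 genes. Of the 3 tested members 1 was called, against 5.57% of all genes. The groups overlapped through WT T3 replicate 1 at 11.8 CPM, which was level with KO T3 replicate 7 and lay below 2 of the KO T3 libraries. An exact two-sided permutation test of log2 CPM gave p = 0.00291, or 0.0408 adjusted over the 14 tests of this kind. Leaving out single libraries moved the fold change between -2.79 and -1.99, and it was -2.30 without the 5 T3 libraries that lay apart (adjusted p = 0.0383, edgeR). It stayed called under all 30 alternatives tried. The libraries of this contrast also entered the T3 contrasts that led to the choice of the gene, so the test is not fully independent of that choice.

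Under vehicle the genotype difference of Ighm had the same sign and was not called. Its log2 fold change was -2.42 ± 0.77 (adjusted p = 0.0977, edgeR), 0 of the 3 tested members were called against 3.08% of all genes, and Ighm was the only one of the 3 with an unadjusted p below 0.05 (0.00456). The exact two-sided permutation test gave p = 0.0714, adjusted 0.175, where 0.00794 is the smallest p that 5 against 4 libraries allow. The value depended on WT vehicle replicate 4: without it the fold change was -1.09 (adjusted p = 0.535). It was called with no filter on low counts (adjusted p = 0.0477), with DESeq2 (0.0286) and without the 5 T3 libraries that lay apart (0.0457). KO vehicle replicate 2, at 3.28 CPM, was above 3 of the 5 WT vehicle libraries.

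**Figure D2:**
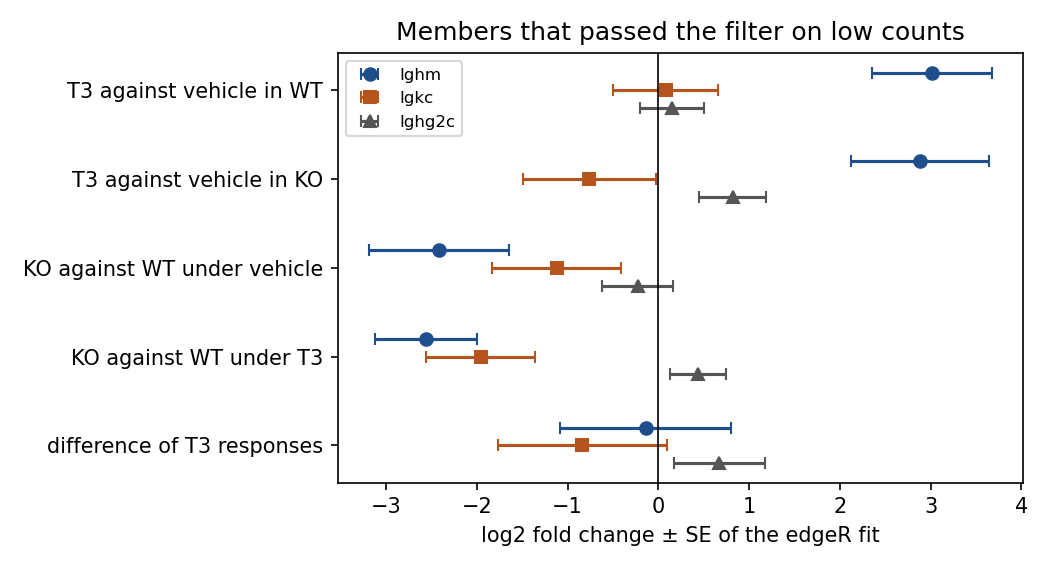
Log2 fold changes (horizontal) with bars of ± 1 SE from the edgeR fit, for Ighm, Igkc and Ighg2c, the 3 members that passed the filter on low counts, in the 5 comparisons (vertical). Ighm lies at 3.02 and 2.88 in the T3 comparisons and at -2.42 and -2.56 in the genotype comparisons, while Ighg2c lies between -0.23 and 0.82 in all 5.

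Ighd, the IgD constant gene next to Ighm (ENSMUSG00000104213, chr12:113406604-113416324, minus strand), had 125 counts in all and 1 to 27 per library, and did not pass the filter. Its mean level was 0.196 ± 0.0775 CPM (SD, n = 5) in WT vehicle libraries and 0.32 ± 0.28 CPM (n = 6) in WT T3 libraries. It was 0.0982 ± 0.0462 CPM (n = 4) in KO vehicle libraries and 0.0926 ± 0.0623 CPM (n = 7) in KO T3 libraries. The groups overlapped, and the highest library was again WT T3 replicate 5, with 27 counts or 0.857 CPM. Between genotypes under T3 the exact permutation test gave p = 0.0134, adjusted 0.0938 over 14 tests, which missed the threshold. With T3, WT libraries held 12797 counts of Ighm and 59 of Ighd, against 1557 and 29 with vehicle.

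Among the genes of switched classes, Ighg2c (ENSMUSG00000076612, chr12:113285325-113288932, minus strand) was the one read in every library. In WT vehicle libraries it was 0.817, 1.06, 1.29, 2.27 and 1.07 CPM. In WT T3 libraries it ran from 0.66 over a median of 1.34 to 2.85 CPM. In KO vehicle libraries it was 1.17, 0.671, 0.749 and 1.91 CPM, and in KO T3 libraries it ran from 1.15 over a median of 1.87 to 3.11 CPM. All 4 groups overlapped, and the highest WT T3 library was replicate 4, not replicate 5. The log2 fold changes were 0.15 ± 0.35 for T3 in WT mice and 0.82 ± 0.37 for T3 in KO mice. For genotype they were -0.23 ± 0.39 under vehicle (adjusted p = 0.868, edgeR) and 0.44 ± 0.31 under T3 (adjusted p = 0.519).

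The other switched classes were near the limit of detection. Igha, the IgA gene (ENSMUSG00000095079, chr12:113254830-113260236, minus strand), had 61 counts. It had a count in 4 of 5 WT vehicle libraries (up to 12 counts), 2 of 6 WT T3 libraries, none of the 4 KO vehicle libraries and 5 of 7 KO T3 libraries. For a KO vehicle library a count of 0 allows up to 3 counts, or 0.1 to 0.116 CPM when scaled to library size only. This is above the value of WT vehicle replicate 4 (0.0749 CPM) and below those of the 3 highest WT vehicle libraries, which are also scaled to composition. Such limits cover counting error only. Ighg2b (ENSMUSG00000076613, chr12:113302965-113307933, minus strand) had 9 counts, 5 in WT T3 replicate 3 and 4 in KO vehicle replicate 3. No exact permutation test between genotypes passed for Igha (p = 0.0873 under vehicle and 0.816 under T3, adjusted 0.175 and 0.816) or Ighg2b (p = 0.444 and 0.462, both adjusted 0.646). Ighg1 and Ighg3, the remaining IgG genes of the table, were at 0 in all 22 libraries, and Ighe, the IgE gene, had 3 counts in all.

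Igkc, the light chain that most mouse antibodies carry, did not show the rise of Ighm with T3, while its genotype fold changes had the same sign. In WT vehicle libraries it was 0.408, 0.449, 0.813, 0.499 and 0.284 CPM, with 0.499 in the replicate that had 29.1 CPM of Ighm. In WT T3 libraries it ran from 0 over a median of 0.272 to 1.46 CPM, and the 1.46 was again replicate 5. In KO vehicle libraries it was 0.439, 0.176, 0.25 and 0.0347 CPM, and in KO T3 libraries it ran from 0.079 over a median of 0.138 to 0.264 CPM. All KO T3 values lay within the range of the WT T3 libraries, which began at 0 only through replicate 4. The next WT T3 value was 0.26 CPM (replicate 2). Only KO T3 replicate 3, at 0.264 CPM, lay above that, and the other KO T3 libraries were at 0.079 to 0.148 CPM. The log2 fold change with T3 was 0.08 ± 0.58 in WT mice and -0.76 ± 0.73 in KO mice, and without the 5 T3 libraries that lay apart the WT value was -1.61. Igkc lay lower in KO mice by -1.12 ± 0.71 under vehicle (adjusted p = 0.533, edgeR) and by -1.96 ± 0.60 under T3 (adjusted p = 0.0545), and neither passed. Under T3 it passed with DESeq2 (adjusted p = 0.0192) and without each of 5 single libraries (WT T3 replicates 1, 2 and 4, KO vehicle replicate 4 and KO T3 replicate 3), while its fold change was -1.30 without WT T3 replicate 5 (adjusted p = 0.193), -0.47 without the 5 libraries that lay apart (0.799) and -0.91 with limma voom (0.6). The exact permutation test gave p = 0.0618 under T3 and 0.0556 under vehicle, both adjusted 0.175.

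**Figure D3:**
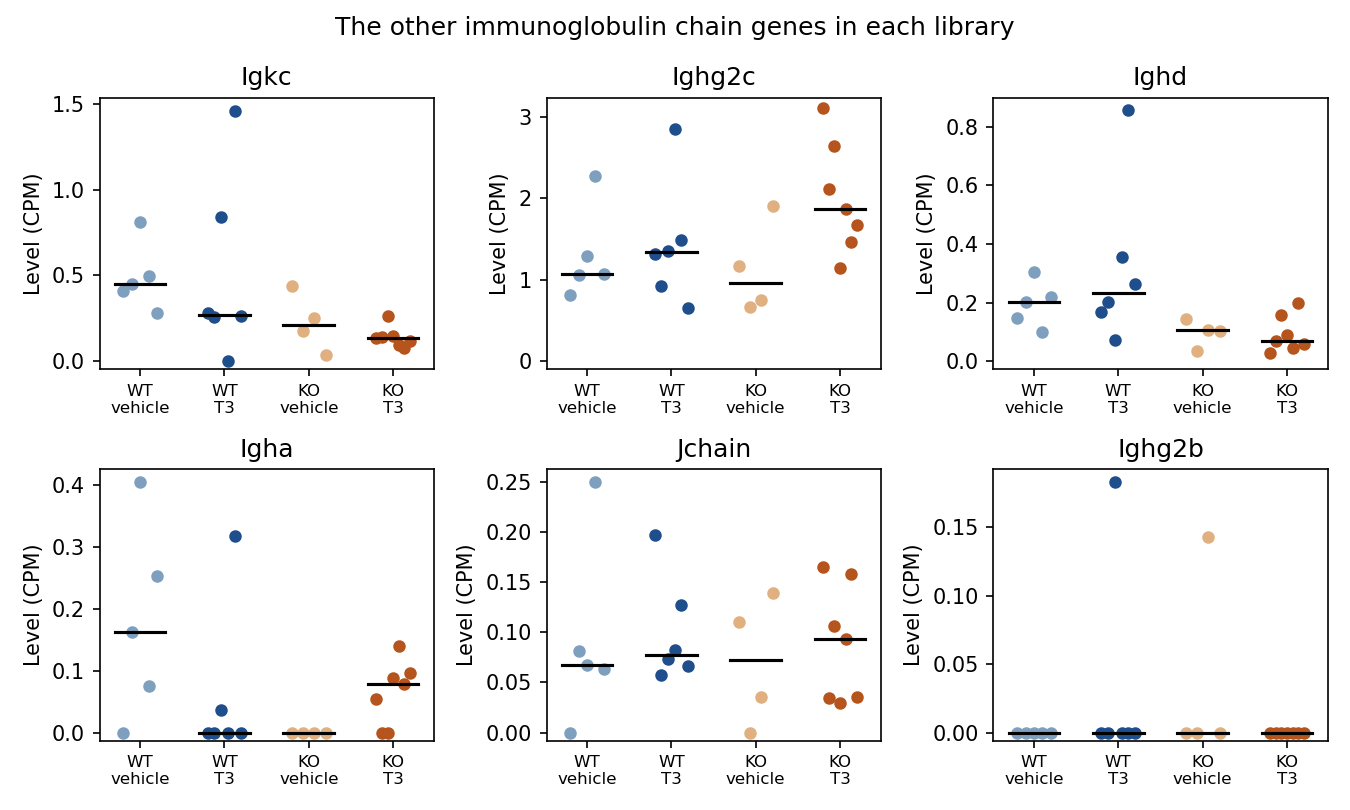
Level in CPM (vertical) of the 6 other genes in each library of the 4 groups (horizontal), with 1 point per library, a bar at the group median and a separate scale for each gene. In each panel the genotypes overlap within a treatment and the treatments within a genotype, and WT T3 replicate 5 is the highest WT T3 point for Igkc (1.46 CPM), Ighd (0.857 CPM) and Igha (0.318 CPM).

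The number of Ighm counts per Igkc count therefore changed between groups. Summed over libraries it was 20.8 in WT vehicle (1557 counts of Ighm and 75 of Igkc), 139 in WT T3 (12797 and 92), 7.28 in KO vehicle (182 and 25) and 98.6 in KO T3 (3647 and 37). Without WT vehicle replicate 4 the WT vehicle ratio was 7.11 (391 and 55), a value chosen after the data were seen. Library by library, the ratio was 38.2 to 302 in the 12 T3 libraries that had any Igkc count. It was 2.5 to 24 in the vehicle libraries other than WT vehicle replicate 4, which had 58.3. WT T3 replicate 4 had 1859 counts of Ighm and none of Igkc, where a count of 0 allows up to 3. Set per length of gene, Igkc stood at 0.487 of Ighm in KO vehicle libraries and at 0.0255 in WT T3 libraries. Of the lambda light chain constant genes, Iglc1 had 13 counts over all libraries, Iglc2 21, Iglc3 4 and Iglc4 0. These genes are much alike, and how reads that match several of them were counted is not given in the sources used here, so their counts are uncertain. The Igkc gene overlaps the annotated gene Gm30211, and none of its transcript stretches of 51 bases stands in another annotated gene.

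Jchain (ENSMUSG00000067149, chr5:88519809-88527891, minus strand), whose product links IgM into polymers, had 68 counts, 0 to 10 per library. Its mean was 0.0924 ± 0.0933 CPM (SD, n = 5) in WT vehicle, 0.1 ± 0.0529 (n = 6) in WT T3, 0.0711 ± 0.0643 (n = 4) in KO vehicle and 0.0889 ± 0.058 (n = 7) in KO T3 libraries. The 4 groups overlapped throughout. The exact permutation tests between genotypes gave p = 0.738 under vehicle and 0.695 under T3 (both adjusted 0.795), at a depth where a single count decides much of each value.

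Variable, diversity and joining segments were almost unread. Of 382 such segments in the table, 79 had a count in some library, and all of them together had 145 counts: 55 in WT vehicle, 18 in WT T3, 19 in KO vehicle and 53 in KO T3 libraries. The WT T3 libraries, with the most Ighm, thus had the lowest sum. The heavy chain V segments held 42 of these counts, and the 3 with the highest mean CPM were Ighv1-82 (3 counts), Ighv1-53 (4) and Ighv9-3 (2). The kappa V segments held 94 counts, led by Igkv12-44 (8), Igkv6-17 (5) and Igkv6-15 (5). The lambda V segments Iglv1, Iglv2 and Iglv3 held 2, 1 and 1, and the heavy chain D segments none. WT T3 replicate 4 had no segment count beside its 1859 counts of Ighm. Segments are short and much alike, so reads that match several of them may have been lost in counting, and their part in these low counts was not tested.

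Most B cell marker genes were too low to be tested. The B cell list of 20 genes held 3 that passed the filter, Ebf1, Cd37 and Blnk, and none was called in any of the 5 comparisons (edgeR), where 0.00663% to 5.57% of all genes were called, so with 3 genes a count of 0 says little. At an unadjusted p below 0.05 there was 1, for T3 in KO mice, and DESeq2 and limma voom also called 0 for T3 in each genotype. Their median log2 fold change with T3 was -0.09 in WT and 0.57 in KO mice, against 0.01 and 0.02 over all genes tested. The summed level of the list was 11.6 to 17.5 CPM in WT vehicle, 9.5 to 15 in WT T3, 9.61 to 13.7 in KO vehicle and 9.78 to 14.6 in KO T3 libraries. Ebf1, which is also expressed in fat and stromal cells, made up 60.9% to 89.4% of this sum in each library. Without Ebf1, an alternative chosen after the data were seen, the other 19 genes summed to 1.55 to 3.39 CPM in WT vehicle, 1.98 to 4.86 in WT T3, 1.21 to 2.4 in KO vehicle and 1.74 to 3.38 in KO T3 libraries, and the 4 groups overlapped. Genes of the B cell receptor itself were at a few counts: Cd79a, which carries the signal of surface antibody, had 27 counts in WT vehicle and 24 in WT T3 libraries, where Ighm went from 1557 to 12797. Cd79b had 13 and 26, and Ms4a1, which codes for CD20, had 10 and 17.

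Several plasma cell genes are active in other tissues too, and more of them could be tested. Of 11 listed genes 7 were tested and none was called in any comparison. Across the comparisons 0.00663% to 5.57% of all genes were called, so with 7 genes a count of 0 says little. At an unadjusted p below 0.05 there was 1 of the 7 for T3 in WT mice, 2 for genotype under vehicle, 2 for the difference of T3 responses and 0 for the remaining comparisons. The median log2 fold change of the 7 genes with T3 was 0.10 in WT and 0.00 in KO mice. The sum of the list was 59.2 to 77.5 CPM in WT vehicle and 63.8 to 87.2 in WT T3 libraries. It was 64.5 to 88.2 CPM in KO vehicle and 70.7 to 104 in KO T3 libraries. Xbp1 alone made up 84.7% to 93.8% of it. Xbp1, a regulator of secretion that many tissues use, had a log2 fold change of 0.10 ± 0.11 with T3 in WT mice (adjusted p = 0.691) and 0.19 ± 0.11 in KO mice (0.514). Sdc1, the plasma cell surface marker CD138, had -0.30 ± 0.22 (0.503) and -0.09 ± 0.22 (0.935). Irf4, a transcription factor of plasma cells and other lymphocytes, had -0.61 ± 0.25 (0.201) and 0.44 ± 0.27 (0.517). Tent5c, a poly(A) polymerase that plasma cells express, had 0.92 ± 0.48 (0.33) and -0.51 ± 0.45 (0.72). Between genotypes under vehicle WT libraries had 0.974 ± 0.4 CPM of Tent5c (SD, n = 5) and KO libraries 2.94 ± 3.28 CPM (n = 4, adjusted p = 0.0996, edgeR). The KO values ran from 0.732 to 7.81 CPM, the highest in replicate 3, the library with 989 CPM of erythroid transcripts. Prdm1, a regulator of plasma cell formation, had means of 0.552 and 0.767 CPM in WT vehicle and WT T3 libraries and of 0.497 and 0.779 CPM in KO vehicle and KO T3 libraries. Mzb1, a chaperone of antibody assembly, had 88 counts in WT vehicle and 64 in WT T3 libraries.

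Of the 5 genes of recombination and class switching only Ung was tested. Ung is a DNA repair enzyme of many cell types that removes uracil, and in B cells it also takes part in class switching. It rose with T3 in KO mice (0.87 ± 0.21, adjusted p = 0.0245, edgeR) and was lower in KO than in WT mice under vehicle (-0.86 ± 0.22, adjusted p = 0.0321). Its change with T3 in WT mice was 0.33 ± 0.19 (adjusted p = 0.396). With single libraries left out, the T3 call was lost without KO vehicle replicate 2, 3 or 4 (adjusted p up to 0.0939, edgeR), and the genotype call without any of these or WT vehicle replicate 3 or 4 (up to 0.126). Rag2, part of the recombinase, was at 0 in all libraries. Of 12 antibody receptor and transport genes 7 were tested and none was called in any comparison, among them Fcgrt, the neonatal Fc receptor that protects IgG from breakdown (0.31 ± 0.30 with T3 in WT mice, adjusted p = 0.64, and 0.01 ± 0.30 in KO mice, 0.996). At an unadjusted p below 0.05 there were 2 of these 7 with T3 in each genotype and 0 in the other comparisons. Of 11 factors that draw or sustain B cells 7 were tested and 0 called, with 1 at an unadjusted p below 0.05 for T3 in WT mice and 1 for genotype under vehicle. With 7 tested genes in each list, beside 0.00663% to 5.57% of all genes called, these counts of 0 say little.

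Markers of other cells that a piece of muscle can hold were read beside these values. None of the genes that passed the filter from the lists of T cells (1 of 14), MHC class II (7 of 9), neutrophils (3 of 11) and adipocytes (7 of 7) was called in any comparison, and no NK cell gene was tested. Across the comparisons 0.00663% to 5.57% of all genes were called, so counts of 0 in such short lists say little. At an unadjusted p below 0.05 there were 2 adipocyte genes for T3 in WT mice, 1 for genotype under T3 and 1 neutrophil gene there, and 0 otherwise. Of 11 macrophage genes 1 was called, Cd163, a haemoglobin scavenger receptor, higher in KO mice under T3 (0.66 ± 0.19, adjusted p = 0.0369, edgeR). That call was lost without each of 13 of the 22 libraries (WT vehicle replicate 4, WT T3 replicates 2 to 5, KO vehicle replicates 2 and 4, and KO T3 replicates 1 to 3 and 5 to 7), with an adjusted p of up to 0.122. The macrophage genes had a median log2 fold change with T3 of 0.62 in WT and 0.71 in KO mice, against 0.01 and 0.02 over all genes, with 3 and 6 of the 11 at an unadjusted p below 0.05 and 0 called. Of 7 erythroid genes 1 was called, the globin gene Hbb-bt, higher in KO mice under vehicle (3.55 ± 0.92, adjusted p = 0.0341). Without KO vehicle replicate 3, the library with 989 CPM of erythroid transcripts, it was 0.82 ± 0.71 (adjusted p = 0.781, edgeR), and the call was also lost without any 1 of the 5 WT vehicle libraries. At an unadjusted p below 0.05 there were 7 erythroid genes for genotype under vehicle (median 2.84), 7 for the difference of T3 responses (median -2.94), 3 for T3 in WT mice (median 1.74) and 0 otherwise. KO vehicle replicate 3 had 1.25 CPM of Ighm. WT T3 replicate 5, the library with 188 CPM of Ighm, also had the highest sums among WT T3 libraries for macrophage genes (181 CPM), MHC class II genes (118 CPM), antibody receptor and transport genes (306 CPM), adipocyte genes (734 CPM), erythroid genes (334 CPM), plasma cell genes (87.2 CPM) and recombination and class switching genes (20.3 CPM). Its sum of B cell genes was 12.4 CPM, inside the range of the other WT T3 libraries, and 4.86 CPM, the highest of them, without Ebf1. Without it the T3 fold change of Igkc in WT mice went from 0.08 to -0.59 on the log2 scale, and its part in the values of Igha and Ighd was not tested.

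Within groups, the relation of Ighm with each other member did not pass a test. For each of the 22 libraries the deviation of log2(CPM + 0.5) from its group mean was taken, and 20 relations with Ighm were computed, 6 with other members and 14 with list sums. Igkc gave r = 0.32 and rho = 0.18 (permutation p = 0.282 and 0.465, adjusted 0.626 and 0.727), and r = 0.39 without the 2 libraries in which Ighm lay farthest from its median (WT vehicle replicate 4 and WT T3 replicate 1). Ighd gave r = 0.37 (permutation p = 0.202, adjusted 0.605) and rho = 0.21 (p = 0.4, adjusted 0.727), with r = 0.65 without those 2 libraries and -0.19 without the 5 that lay apart. The sum of the B cell genes gave r = -0.05 and rho = -0.02 (permutation p = 0.837 and 0.94, adjusted 0.881 and 0.94), and r = 0.02 without the same 2 libraries. Ebf1 makes up most of that sum, and the other 19 genes gave r = 0.35 and rho = 0.32. Of the 20 relations 1 passed after adjustment by r and none by rho. It was the list of lymph node stroma and lymphatic vessels with r = -0.62 (permutation p = 0.00221, adjusted 0.0442) and rho = -0.50 (p = 0.0244, adjusted 0.244), and r = -0.53 without the 2 libraries. This rested on Prox1, which made up 23.5% to 74% of the sum: without Prox1, an alternative chosen after the data were seen, r was -0.04 and rho -0.08. In that list the strongest single gene was Prox1 (r = -0.74, with 0.00 for Flt4, 0.24 for Ccl21a and -0.34 for Lyve1), which marks lymphatic vessels and is also expressed in slow muscle fibres. It was higher in KO than in WT mice under T3 (1.23 ± 0.19, adjusted p = 0.000232, edgeR), the 1 gene of the 4 tested in that list that was called.

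The genes most like Ighm in these deviations were ranked over the whole table. Of 13185 named genes outside the immunoglobulin loci the 8 with the highest Pearson r were Slc37a4 (0.92), Smox (0.89), Gpd1 (0.87), Dhrs7c (0.87), Kcnc4 (0.85), Wnt4 (0.85), Prkag3 (0.84) and Fam57b (0.84), where the median over all of them was 0.03. Slc37a4 carries glucose 6-phosphate into the endoplasmic reticulum, Smox oxidises spermine, Gpd1 is the cytosolic glycerol 3-phosphate dehydrogenase, Dhrs7c is a dehydrogenase of the sarcoplasmic reticulum, Kcnc4 is a potassium channel, Wnt4 is a secreted ligand, and Prkag3 is the AMP kinase subunit found mainly in fast muscle. Being the top of a ranking, these coefficients are a description. Without the 2 libraries farthest out in Ighm they were 0.62 to 0.91, with Slc37a4 at 0.91, and without the 5 T3 libraries that lay apart 0.81 to 0.96. Within each group the highest Slc37a4 library was also the highest Ighm library: WT vehicle replicate 4 (32.3 CPM of Slc37a4), WT T3 replicate 5 (35.2 CPM), KO vehicle replicate 2 (14.6 CPM) and KO T3 replicate 6 (28.2 CPM). None of the 8 genes was called in any of the 5 comparisons (edgeR), beside 0.00663% to 5.57% of all genes, so this count says little. Slc37a4 had a log2 fold change of 0.52 ± 0.24 with T3 in WT mice (adjusted p = 0.264) where Ighm had 3.02. At an unadjusted p below 0.05 there were 2 of the 8 for T3 in WT mice, 2 for T3 in KO mice, 5 for genotype under vehicle, 3 for genotype under T3 and 0 for the difference of T3 responses.

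**Figure D4:**
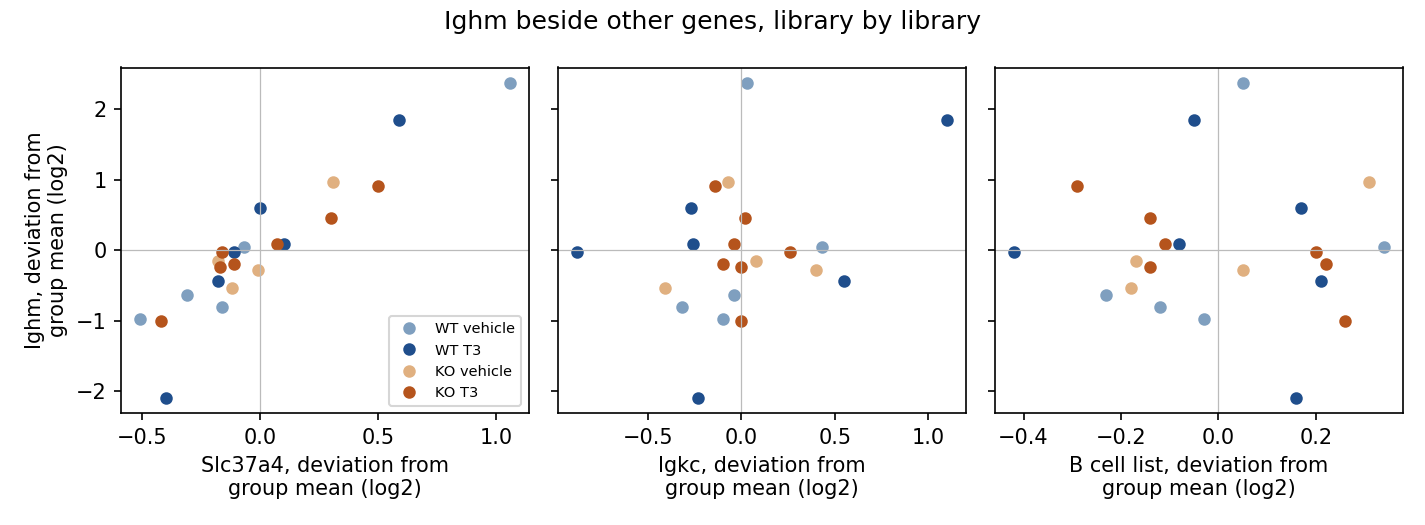
Deviation of each library from its group mean in log2(CPM + 0.5), for Ighm (vertical) against Slc37a4, Igkc and the sum of the B cell list (horizontal), with 1 point per library and colours for the 4 groups. The points follow a line for Slc37a4 (r = 0.92) and scatter for Igkc (r = 0.32) and for the B cell list (r = -0.05), a sum of which Ebf1 makes up 60.9% to 89.4%.

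Fast fibre genes varied along with Ighm in several libraries. A list of 10 fast fibre genes, added after the likeness values were seen, had a median r of 0.51 with Ighm within groups, from -0.20 for Myh2 to 0.81 for Actn3, with 9 of 10 above 0. The median was 0.34 without the 2 libraries farthest out in Ighm and 0.56 without the 5 that lay apart. WT vehicle replicate 4 was the highest of its group for 9 of these 10 genes, and KO vehicle replicate 2 for 4. In the T3 groups the libraries highest in Ighm led for fewer than 9. WT T3 replicate 5 was the highest of its group for 5 and the lowest for 2. KO T3 replicate 6 was the highest for 2 and the lowest for 1. Myh4, the myosin of the fastest fibres, was 17.8, 271, 1810, 8950 and 409 CPM in WT vehicle libraries and 9.37, 1970, 18.6 and 48.4 CPM in KO vehicle libraries, so replicates 4 and 2, which led in Ighm, led here too. In KO T3 libraries Myh4 was 2200 CPM in replicate 2, which had 9.25 CPM of Ighm, so the order was not the same in every group. The 8 listed slow fibre genes had a median r of -0.07, which was 0.26 without the 2 farthest libraries and -0.32 without the 5. Between genotypes, 6 of the 10 fast genes were called lower in KO mice under vehicle and 5 under T3, and 6 and 7 of the 8 slow genes were called higher (edgeR). Among all genes 3.08% were called under vehicle and 5.57% under T3, in either direction. With T3 only Mylpf in WT mice (0.75 ± 0.20, adjusted p = 0.0356) and Myh1 in KO mice (1.46 ± 0.39, adjusted p = 0.0468) were called among the fast genes, both higher, beside 3.31% and 2.72% of all genes. Myh1 in WT mice missed the threshold (1.30 ± 0.37, adjusted p = 0.0513, edgeR), and its T3 responses differed by 0.15 ± 0.52 between genotypes. Mylpf in KO mice had 0.44 ± 0.21 (adjusted p = 0.339), a difference of -0.31 ± 0.28. The part of the fibre genes in the Ighm values was not tested.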

How the data were processed

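The authors' deposited table holds raw counts per gene for 22 libraries, as whole numbers, with a length column in bases (unit other). Per the submitters' processing notes, STAR 2.7.3a, featureCounts 1.6.4, edgeR 3.26.8 and mm10 were used. Per the labels' protocols, libraries were made with a stranded poly-A kit and read as 51-base pairs. The annotation release, the strand setting and the handling of reads matching several places were not given in the sources used here. Symbols came from GENCODE M21, which matched 55394 of 55487 genes and has the same start and end for all 7 members. The members and gene lists were chosen with earlier results of these data known.

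Counts were tested with edgeR 4.0.16 in R 4.3.3 (filterByExpr with a minimum count of 10, TMM scaling, quasi-likelihood test, 1 coefficient per group over all 22 libraries). The SE given with an edgeR log2 fold change is its absolute value divided by the square root of the F statistic of this test. The p-values were adjusted by Benjamini and Hochberg's method over 15082 genes, and a gene was called below 0.05. The labels give no batch, so no covariate was used. CPM are counts over TMM-scaled totals, and RPKM divide these by the deposited length. Totals ran from 14542548 to 75766782, and a floor of 3 counts corresponded to 0.0396 to 0.206 CPM of these totals, without TMM scaling. Single members were compared between genotypes by exact two-sided permutation of log2(CPM + 0.5). Correlations were taken on deviations from group means, with 100000 rearrangements within groups. Alternatives were RLE and total-count scaling, no filter, 1 CPM in 4 libraries, DESeq2 1.42.0, limma 3.58.1 voom, only the groups compared, each library left out, and 5 T3 libraries left out. Added after the data were seen were list sums without their most abundant gene, single called list genes under the same alternatives, and the Ighm to Igkc ratio and fibre gene medians without single or apart libraries. The edgeR step was tested on simulated data. Named genes were the members, the other constant genes, the 3 V segments of each kind with the highest mean, the most abundant and all called genes of each list (of which some are given as counts only), the 8 genes most like Ighm and Thra. Others, among them the fast fibre genes, single B cell and plasma cell markers and Rag2, were chosen after their values were seen. Some listed genes are not reported here.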

Additional observations from a re-analysis of the deposited data

Results flagged for a closer look

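In 28 sets of values (7 members in 4 groups), 7 had a library whose distance from its nearest neighbour was large for the range of its group by Dixon's test at the 95% level. Chance gives about 1 set in 20 for normally distributed values, which sets that are mostly 0 are not. For Ighm these were WT vehicle replicate 4, at 29.1 CPM against 2.41 to 5.42 in the others, and KO vehicle replicate 2, at 3.28 CPM against 0.833 to 1.25. Among the 8 genes most like Ighm, WT vehicle replicate 4 was the highest of its group for 8 and KO vehicle replicate 2 for 7, and among the 10 fast fibre genes for 9 and 4. The 8 genes were picked for following Ighm, so their count is a description. WT T3 replicate 5 stood apart for Ighd, at 0.857 CPM against 0.0733 to 0.356, and for Igha, at 0.318 CPM against 0 to 0.0367. The others rest on few counts. Igkc in KO T3 replicate 3 was at 0.264 CPM (5 counts) against 0.079 to 0.148, and Ighg2b was at 0.183 CPM in WT T3 replicate 3 (5 counts) and at 0.143 CPM in KO vehicle replicate 3 (4 counts), with 0 in the other libraries of each group, so that both of these follow from a single library with any count.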

How the results depend on the processing

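No called value changed sign under any alternative. The number of members called lower in KO mice under vehicle was 0, and it was 1 (Ighm) with no filter (adjusted p = 0.0477), with DESeq2 (0.0286) and without the 5 T3 libraries that lay apart (0.0457), while leaving out single libraries gave 0 to 0. Under T3 it was 1, and it was 2 (Ighm and Igkc) with DESeq2 and 1 to 2 when single libraries were left out. The adjusted p of Ighm under T3 ran from 0.000508 to 0.0383 over its 30 alternatives, and that of Igkc from 0.0062 to 0.799 over its 28. For the difference of T3 responses the count was 0 in all 29 alternatives. No paired analysis was possible because the labels give no replicate numbers that groups share. Depth limits Jchain, Igha, Ighd and Ighg2b, which did not pass the filter, and Igkc, with 0 to 46 counts per library. Under the 1 CPM filter, and in the fits on only the KO groups or only the T3 groups, Igkc was not tested. The log2 fold changes of Ighm with T3 are descriptions, because the set was chosen by them. Over the 30 alternatives they ran from 2.45 to 4.33 in WT mice and from 2.63 to 3.46 in KO mice.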
